A study of Homo sapiens with 4 samples.

Results

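The transcripts of 10 chemokines were examined in RD and JR1 cells: the CC ligands CCL2, CCL5, CCL7 and CCL20 and the CXC ligands CXCL1, CXCL2, CXCL3, CXCL8, CXCL10 and CXCL11. They were taken by name from the 39323 genes of each table. The set was chosen by the measured changes after SKP2 depletion, in which CCL5 showed the largest fall that the lines shared, so those changes are given as a description. RD and JR1 are established lines of fusion-negative rhabdomyosarcoma (FN-RMS), a soft-tissue tumour with features of skeletal muscle. Cells of each line were infected with a lentivirus that expressed either a short hairpin RNA against human SKP2 (shSKP2, the hairpin called shSKP2.2) or a non-targeting hairpin (shSCR). The labels give the shSCR cells the genotype WT and the shSKP2 cells the genotype SKP2 knockdown, and all 4 groups carried a lentiviral vector and were grown in serum-containing medium. Poly-A RNA was sequenced, with a single library for each line and condition and 4 in total. Nothing therefore measures the spread between replicates, and the differences carry no error and no p-value.

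Chemokines are small secreted proteins that draw cells along a gradient through G protein-coupled receptors. CC ligands such as CCL5 and CCL2 mainly attract monocytes and T cells. The CXC ligands CXCL1, CXCL2, CXCL3 and CXCL8 act on neutrophils through CXCR2, and CXCL10 and CXCL11 act on activated T cells through CXCR3. Many cell types besides leukocytes make them after signals that activate the factor NF-kB or interferon regulatory factors, and several belong to the secretome of senescent cells.

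Levels are given in TPM, a unit of transcript abundance scaled by transcript length and by the total of the library, so levels of different genes may be set side by side. TPM keep no read counts, and the depth of the libraries is unknown. A change is the log2 value of TPM + 1 with shSKP2 minus that with shSCR within a line, which understates the change of low genes. A gene was tested when its mean over the 4 libraries was at least 1 TPM (12985 genes) and was called when its change was at least 1 in either direction, a 2-fold change. SKP2 itself was at 92.8 TPM in RD shSCR and 7.40 TPM in RD shSKP2, and at 46.5 and 2.72 TPM in JR1. Of 10 skeletal muscle markers 9 were at 1 TPM or more in every library, and MYF5 was listed at 0 in all 4. Their sum was 944 TPM in RD shSCR, 1343 TPM in RD shSKP2, 1247 TPM in JR1 shSCR and 2741 TPM in JR1 shSKP2. Much of that sum was ACTC1, a cardiac actin of immature muscle, at 299.8 and 584 TPM in RD and at 504 and 1741 TPM in JR1 (shSCR and shSKP2). The markers did not move as one, since PAX7, a factor of muscle precursors, was at 10.8 and 3.36 TPM in RD and at 4.84 and 1.16 TPM in JR1, and CHRND at 17.2 and 9.76 TPM and at 53.0 and 34.6 TPM. The part of these differences in the chemokine levels was not tested. None of 14 leukocyte markers reached 1 TPM in a library. Their sum was 1.06 and 0.55 TPM in RD and 1.83 and 0.84 TPM in JR1 (shSCR and shSKP2), PTPRC did not exceed 0.01 TPM, and CD3D, MS4A1, GNLY, TYROBP and AIF1 were listed at 0 throughout. Among 7 endothelial markers TEK was the only one above 1.24 TPM, and among 7 platelet and erythroid markers none exceeded 0.27 TPM. Short structural RNA genes held 58.6% of the TPM in RD shSCR, 69.1% in RD shSKP2, 66.5% in JR1 shSCR and 72.1% in JR1 shSKP2, and over all tested genes the median change came to -0.27 (RD) and -0.21 (JR1).

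The 10 genes lie in groups on 3 chromosomes (GRCh38, with the coordinates of the deposited tables, which equal those of RefSeq for all 10). CXCL8 (chr4:73740569-73743716), CXCL1 (chr4:73869393-73871308), CXCL3 (chr4:74036589-74038689) and CXCL2 (chr4:74097040-74099195) lie within 358627 bases. CXCL10 (chr4:76021118-76023497) and CXCL11 (chr4:76033682-76036070) are 10184 bases apart on the same chromosome. CCL2 (chr17:34255285-34257203) and CCL7 (chr17:34270221-34272242) are 13017 bases apart, and CCL5 (chr17:35871491-35880360) lies 1599248 bases from CCL7. CCL20 (chr2:227813842-227817556) stands alone. In GENCODE 44 the canonical transcripts of CCL2 and CCL7 have 3 exons and the other 8 have 4.

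Sequences upstream of the transcription start were available from RefSeq (GRCh38.p14) for 8 of the 10 genes, all except CCL2 and CCL5. The 250 bases before the start of the 6 CXC genes are printed because all 6 hold the same word of 9 letters. They are read 5′ to 3′ on the strand of the gene and cover chr4:73869143-73869392 (plus strand), chr4:74099196-74099445 (minus strand), chr4:74038690-74038939 (minus strand), chr4:73740319-73740568 (plus strand), chr4:76023498-76023747 (minus strand) and chr4:76036071-76036320 (minus strand). Capitals mark matches of 3 motifs on either strand: GGAATTTCC, the NF-kB motif described below, and the interferon-stimulated response element (ISRE) described below.
CXCL1: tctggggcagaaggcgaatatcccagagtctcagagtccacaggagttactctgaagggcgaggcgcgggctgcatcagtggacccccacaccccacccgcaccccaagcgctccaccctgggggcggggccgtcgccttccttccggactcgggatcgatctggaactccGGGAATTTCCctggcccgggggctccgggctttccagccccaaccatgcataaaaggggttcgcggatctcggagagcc
CXCL2: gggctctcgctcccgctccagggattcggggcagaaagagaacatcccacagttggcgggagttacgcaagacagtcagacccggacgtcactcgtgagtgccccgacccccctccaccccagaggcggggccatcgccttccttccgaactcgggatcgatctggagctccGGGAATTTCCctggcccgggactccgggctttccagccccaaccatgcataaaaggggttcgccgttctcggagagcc
CXCL3: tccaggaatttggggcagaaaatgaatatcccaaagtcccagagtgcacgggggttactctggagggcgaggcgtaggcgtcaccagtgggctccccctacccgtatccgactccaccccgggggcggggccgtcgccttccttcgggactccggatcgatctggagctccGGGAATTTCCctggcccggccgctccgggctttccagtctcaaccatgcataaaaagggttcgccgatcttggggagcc
CXCL8: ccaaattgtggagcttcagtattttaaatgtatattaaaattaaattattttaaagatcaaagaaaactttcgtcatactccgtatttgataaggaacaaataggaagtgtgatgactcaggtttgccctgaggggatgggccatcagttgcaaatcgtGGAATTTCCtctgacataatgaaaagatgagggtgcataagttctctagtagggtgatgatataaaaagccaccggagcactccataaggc
CXCL10: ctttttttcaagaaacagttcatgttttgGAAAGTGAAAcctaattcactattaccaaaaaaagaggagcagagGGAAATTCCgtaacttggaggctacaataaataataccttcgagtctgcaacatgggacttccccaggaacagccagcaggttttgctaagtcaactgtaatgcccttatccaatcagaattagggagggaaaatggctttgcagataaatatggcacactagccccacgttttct
CXCL11: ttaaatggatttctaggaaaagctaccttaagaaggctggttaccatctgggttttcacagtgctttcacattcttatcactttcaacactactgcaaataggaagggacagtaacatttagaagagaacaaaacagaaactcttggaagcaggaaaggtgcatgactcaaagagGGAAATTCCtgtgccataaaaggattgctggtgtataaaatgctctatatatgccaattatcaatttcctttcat

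The word GGAATTTCC, a core of NF-kB binding sites, was found in CXCL1, CXCL2, CXCL3 and CXCL8 on the strand of the gene and in CXCL10 and CXCL11 on the opposite strand. It began 78 bases before the start in CXCL1 and CXCL3, 77 bases in CXCL2 and 91 bases in CXCL8. This word was picked after the sequences had been seen, and 0.428% of the 27305 human promoter windows of this length hold it. The NF-kB motif of GGG, 2 free bases and TTTCC matched CXCL1, CXCL2, CXCL3 and CCL20, against 1.73% of all windows, and overlaps that word in the first 3. A looser form, GGG and CC separated by 5 free bases, matched 7 of the 8 windows and 53.7% of all windows. The ISRE core of GAAA, 2 free bases and GAAA matched CXCL10 only, 221 to 212 bases before the start, against 3.07% of all windows. Its shorter form AAANNGAAA matched CXCL10 at the same place and CXCL11, against 9.28%. The windows of CXCL1 and CXCL3 were 81.4% identical, those of CXCL2 and CXCL3 73.4%, and those of CXCL1 and CXCL2 70.1%, whereas each was between 43.9% and 47.9% identical to that of CXCL8. A match of letters is a description and does not show that a factor was bound in these cells.

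In both lines the chemokine transcripts of control cells were mostly CCL5. The summed level of the 10 genes was 107 TPM in RD shSCR and 8.47 TPM in RD shSKP2, and 188 TPM in JR1 shSCR and 10.3 TPM in JR1 shSKP2. The sum was thus 12.6-fold lower with shSKP2 in RD and 18.3-fold lower in JR1. CCL5 made up 84.5% of it in RD shSCR and 69.1% in JR1 shSCR, against 11.1% and 16.1% with shSKP2. Without CCL5 the sum was 16.6 and 7.53 TPM in RD, a 2.21-fold difference, and 58.1 and 8.63 TPM in JR1, a 6.74-fold difference. Of this remainder CCL2 held 7.23 and 0.34 TPM in RD and 29.7 and 0.88 TPM in JR1. Short structural RNA genes held more of the TPM with shSKP2 (69.1% against 58.6% in RD, 72.1% against 66.5% in JR1). The sums were not recomputed without those genes, which would make these fold differences smaller. In shSKP2 cells the largest single level was that of CXCL3 in RD (2.47 TPM) and of CXCL1 in JR1 (2.88 TPM). As these are bulk libraries, fewer cells that express a chemokine and less RNA per cell cannot be told apart.

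**Figure D1:**
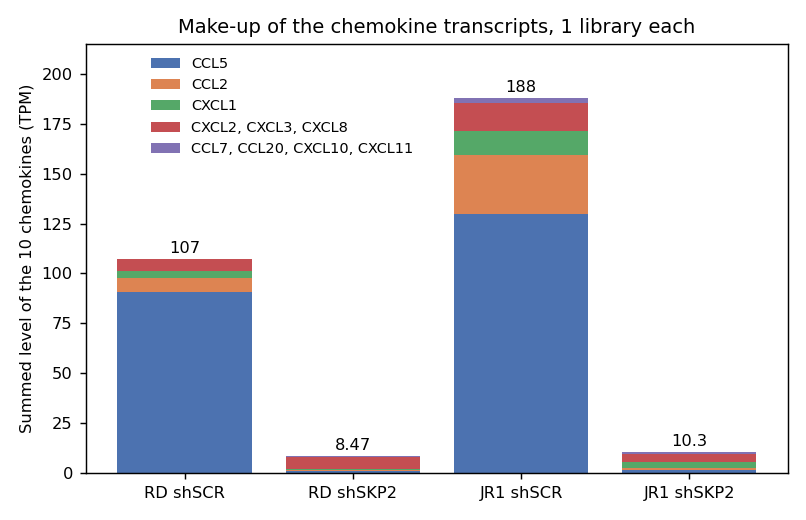
Stacked bars give the summed level in TPM of the 10 chemokines in each of the 4 libraries, with 1 library per bar and no error. CCL5 forms most of the bars of the shSCR libraries (107 TPM in RD and 188 TPM in JR1), and the shSKP2 bars reach 8.47 and 10.3 TPM.

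Over the 10 genes, 3 were called lower in RD and 6 in JR1, and 0 were called higher in either line. The 6 genes called in JR1 are also the 6 that passed the minimum of 1 TPM, to which the shSCR libraries contributed most, so the other 4 could not be called. Of all tested genes 7.37% were called lower and 1.08% higher in RD, and 9.05% lower and 1.78% higher in JR1. CCL5, CCL2 and CXCL1 were called lower in both lines, as were 4.79% of all tested genes. CXCL2, CXCL3 and CXCL8 were called lower in JR1 and not in RD. With a limit of 1.5-fold the counts of members called lower stayed at 3 and 6, while 23.2% of all tested genes were then called lower in RD and 23.4% in JR1. With short structural RNA genes left out and TPM rescaled they were again 3 and, with CCL20 now over the minimum, 7, beside 3.44% of all tested genes in RD and 7.49% in JR1. These counts belong to the contrast on which the genes were chosen and are given as a description.

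**Figure D2:**
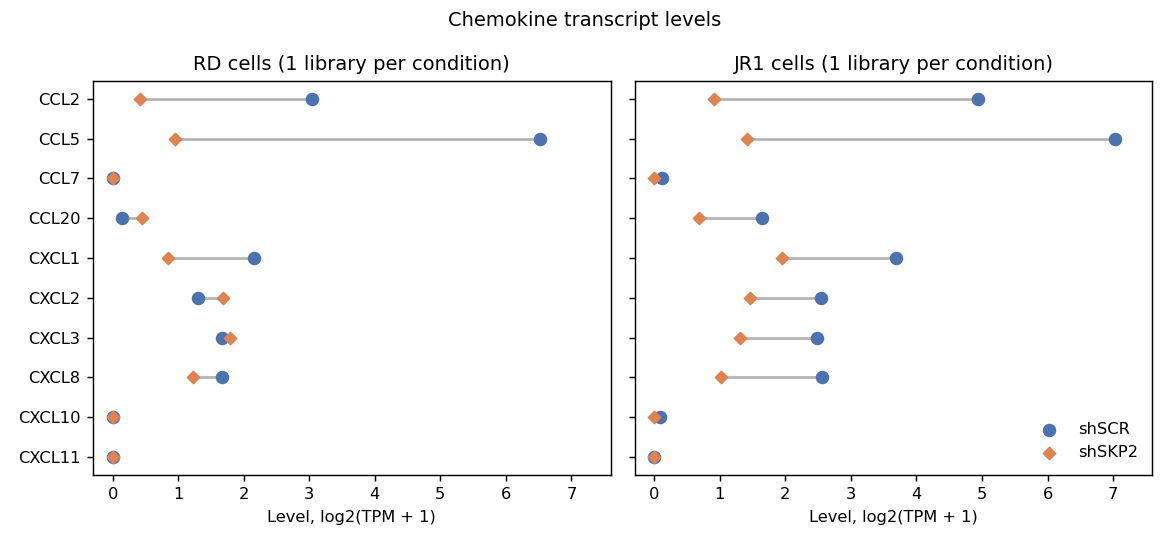
Levels of the 10 chemokines as log2(TPM + 1) in RD (left) and JR1 (right), with a circle for the shSCR library and a diamond for the shSKP2 library. CCL5 and CCL2 have the longest lines in both panels, and CXCL2, CXCL3 and CCL20 are slightly higher with shSKP2 in RD and lower in JR1.

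CCL5, also called RANTES, attracts T cells and monocytes and is induced by viral RNA sensing, interferon and NF-kB signals. It was at 90.5 TPM in RD shSCR and 0.94 TPM in RD shSKP2, and at 130 TPM in JR1 shSCR and 1.66 TPM in JR1 shSKP2. Both control libraries were high and both shSKP2 libraries were low, with a TPM ratio of 96.2 in RD and 78.2 in JR1. On the log2 scale CCL5 changed by -5.56 (RD) and -5.62 (JR1). In RD shSCR CCL5 ranked 786 among the 21453 genes above 0 TPM, and in RD shSKP2 it ranked 12991 of 22645. In JR1 it ranked 387 of 21798 in shSCR and 11282 of 22005 in shSKP2.

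CCL2, which attracts monocytes through CCR2, was at 7.23 and 0.34 TPM in RD and at 29.7 and 0.88 TPM in JR1, in shSCR and shSKP2. CCL2 changed by -2.62 (RD) and -4.03 (JR1), with TPM ratios of 21.3 and 33.7. It was the second most abundant member in the control cells of each line and fell under 1 TPM in the depleted cells of both. CCL7, a neighbour of CCL2 in the genome that acts on overlapping receptors, was listed at 0 in 3 libraries and at 0.08 TPM in JR1 shSCR.

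CCL20 is the ligand of CCR6 on dendritic cells and lymphocytes. It was at 0.10 and 0.37 TPM in RD and at 2.14 and 0.61 TPM in JR1, in shSCR and shSKP2. Its mean of 0.805 TPM was under the minimum, and it changed by 0.32 (RD) and -0.96 (JR1). The level in RD was low in both libraries, and JR1 shSCR was the only library above 1 TPM.

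CXCL1, CXCL2 and CXCL3, close paralogs known as GRO-alpha, GRO-beta and GRO-gamma, attract neutrophils through CXCR2. CXCL1 was at 3.47 and 0.80 TPM in RD and at 11.9 and 2.88 TPM in JR1, in shSCR and shSKP2. It fell by 1.31 on the log2 scale in RD and by 1.73 in JR1, and the TPM ratios of 4.34 and 4.13 were alike. CXCL2 was at 1.47 and 2.22 TPM in RD and at 4.82 and 1.75 TPM in JR1, with changes of 0.38 and -1.08. CXCL3 was at 2.19 and 2.47 TPM in RD and at 4.59 and 1.48 TPM in JR1, with changes of 0.12 and -1.17. For CXCL2 and CXCL3 the JR1 shSCR library was thus the high one, and the other 3 libraries lay between 1.47 and 2.47 TPM.

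The calls of CXCL2 and CXCL3 in JR1 were lost when changes were centred on the median of all tested genes, at -0.87 and -0.96. Their changes in RD stayed above 0 under each of the scalings that were tried, up to 0.85 for CXCL2 and 0.52 for CXCL3 when short structural RNA genes were left out. Of all tested genes 7.55% were higher in RD and lower in JR1. The canonical transcripts of CXCL1 and CXCL2 were 83.7% identical, those of CXCL2 and CXCL3 73.0%, and those of CXCL1 and CXCL3 69.2%. Of all words of 75 bases in CXCL3, 2.30% were also found in CXCL2, and of those in CXCL1 0.273% were found in CXCL2, and reads were longer than such words. This was computed on GENCODE 44, which is not the annotation of the deposited tables. None of the other 7 genes shared such a word with any of the 45 other ligands it was compared with.

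CXCL8, or interleukin-8, is the best known neutrophil attractant and acts through CXCR1 and CXCR2. It was at 2.17 and 1.33 TPM in RD and at 4.89 and 1.03 TPM in JR1, in shSCR and shSKP2. CXCL8 changed by -0.44 in RD, which did not reach the limit, and by -1.54 in JR1. All 4 genes of its cluster were lower with shSKP2 in JR1, by a TPM ratio of 2.75 (CXCL2) to 4.75 (CXCL8), and in RD the ratio of shSCR over shSKP2 ran from 0.662 (CXCL2) to 4.34 (CXCL1).

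CXCL10 and CXCL11, which are induced by interferon in many cell types, were hardly detected. CXCL10 was listed at 0 in 3 libraries and at 0.06 TPM in JR1 shSCR, and CXCL11 was listed at 0 in all 4. Levels in the interferon list described below ranged widely in control cells. ISG15 was the highest, at 647 TPM in RD shSCR and 606 TPM in JR1 shSCR. MX1 was at 0.76 and 1.16 TPM and XAF1 at 0.09 and 0.30 TPM in these libraries. Both were under the minimum, which the other 21 genes of that list passed. CXCL9, the other CXCR3 ligand, was listed at 0 in every library.

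**Figure D3:**
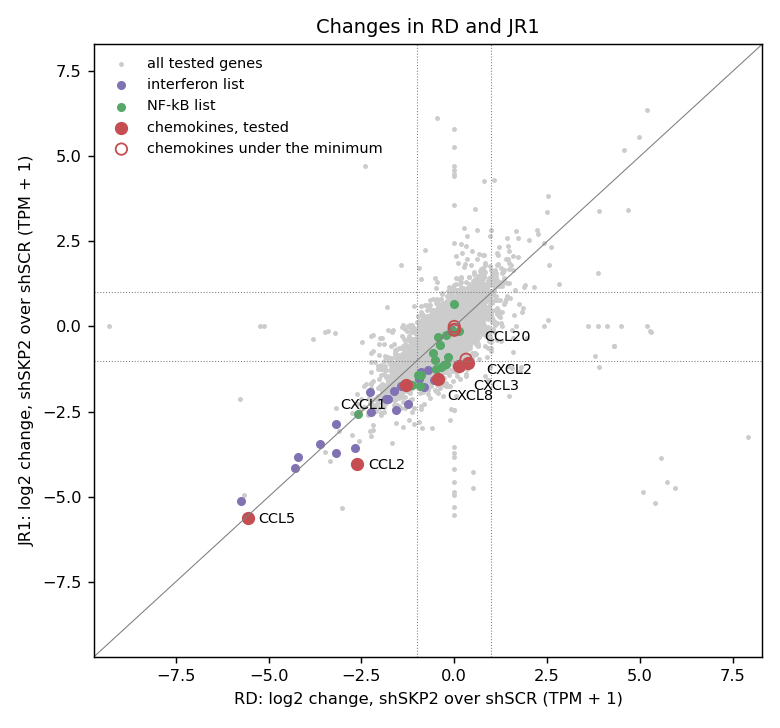
Log2 changes (shSKP2 over shSCR, TPM + 1) in RD on the horizontal axis and in JR1 on the vertical axis, for all 12985 tested genes (grey), the interferon and NF-kB lists and the chemokines. Dotted lines mark changes of 1. CCL5 lies at -5.56 and -5.62 beside interferon-list genes, whereas CXCL2 and CXCL3 lie right of 0 in RD and under -1 in JR1.

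The lines were also compared within a condition, as log2 of TPM + 1 in RD over TPM + 1 in JR1, a contrast that uses the same 4 libraries. In shSCR cells 9 of the 10 members were higher in JR1, and CXCL11 was at 0 in both lines. For CCL7 and CXCL10 this rests on 0.08 and 0.06 TPM in JR1 against 0 in RD. The share of all genes higher in JR1 at any size was not computed. The difference was -1.90 for CCL2, -1.53 for CXCL1, -1.51 for CCL20, -1.24 for CXCL2, -0.89 for CXCL8, -0.81 for CXCL3 and -0.52 for CCL5. Of the 6 tested members 3 were higher in JR1 by at least 1, where 3.45% of all tested genes were, and 0 were higher in RD by at least 1, where 6.5% were. With short structural RNA genes left out CCL20 was tested too, and 6 of the 7 were then higher in JR1 by at least 1, all but CCL5 (-0.82). The share of all tested genes under that setting was not computed, so this count has no background. Those RNA genes held 66.5% of JR1 shSCR and 58.6% of RD shSCR, so leaving them out raises every other gene more in JR1. In shSKP2 cells CXCL1 alone passed the limit, with a difference of -1.11 (0.80 TPM in RD and 2.88 TPM in JR1). There 2.7% of all tested genes were higher in JR1 by at least 1 and 5.39% were higher in RD. CXCL2, CXCL3 and CXCL8 were higher in RD shSKP2 than in JR1 shSKP2, by 0.23, 0.48 and 0.20.

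Within each library the order of the levels differed between the conditions. In RD shSCR it was CCL5, CCL2, CXCL1, CXCL3, CXCL8, CXCL2 and CCL20, and in JR1 shSCR CCL5, CCL2, CXCL1, CXCL8, CXCL2, CXCL3 and CCL20. In RD shSKP2 the order was CXCL3, CXCL2, CXCL8, CCL5, CXCL1, CCL20 and CCL2, and in JR1 shSKP2 it was CXCL1, CXCL2, CCL5, CXCL3, CXCL8, CCL2 and CCL20. With 1 library each, the spread that would separate neighbours in these orders is unknown. The 3 most abundant control transcripts were the same in both lines.

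**Figure D4:**
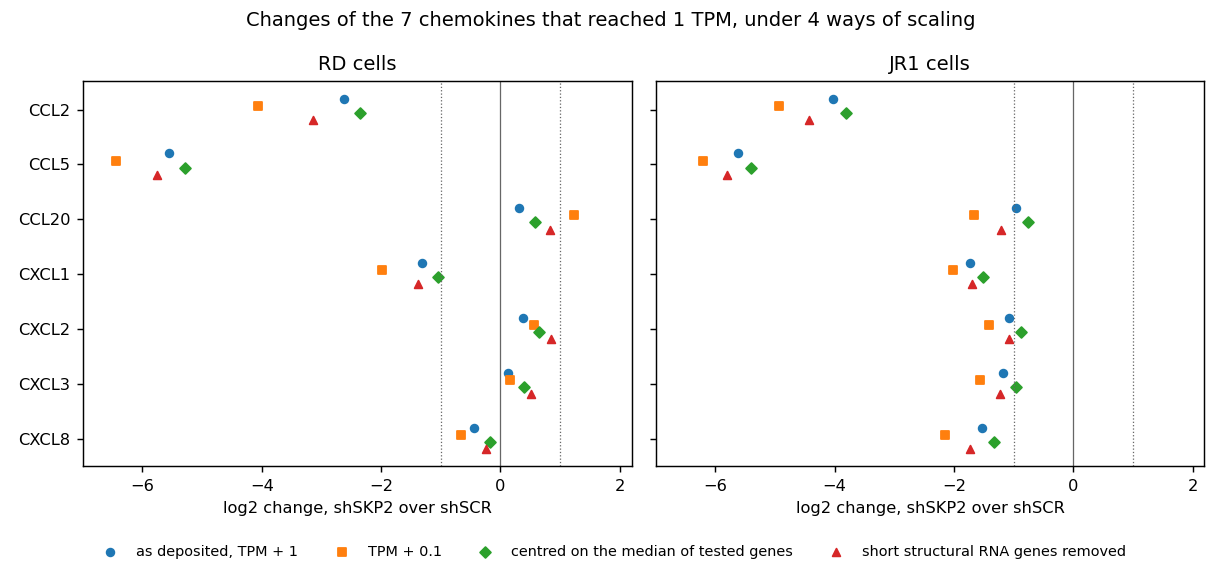
Log2 changes (shSKP2 over shSCR) in RD and JR1 of the 7 members that reached 1 TPM in a library, with a marker for each of 4 ways of scaling and dotted lines at -1 and 1. CCL5, CCL2 and CXCL1 stay left of -1 in both lines, and CXCL2, CXCL3 and CCL20 stay right of 0 in RD.

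Most of the other ligands were at or near 0. The tables hold 36 other ligands, of which 22 were listed at 0 in all 4 libraries and of which 3 passed the minimum. CXCL16, a ligand made as a membrane protein, was at 3.0 and 2.48 TPM in RD and at 4.12 and 1.44 TPM in JR1, with changes of -0.20 and -1.07. CXCL12, the ligand of CXCR4, was at 0 and 0.09 TPM in RD and at 6.61 and 2.91 TPM in JR1, with changes of 0.12 and -0.96. CCL26 (eotaxin-3) was at 0.96 and 1.44 TPM in RD and at 0.96 and 1.11 TPM in JR1, with changes of 0.32 and 0.11. Thus 1 of the 3 was called lower in JR1, 0 in RD, and 0 were called higher. The summed level of all 36 was 4.81 and 4.42 TPM in RD and 12.6 and 5.88 TPM in JR1. That of the 10 members was 107 and 8.47 TPM in RD and 188 and 10.3 TPM in JR1.

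Several receptors of the members were under 1 TPM. CCR8, CXCR1, CXCR3 and ACKR1 were listed at 0 in all 4 libraries, CCR2 and CXCR2 did not exceed 0.02 TPM, and CCR1 did not exceed 0.62 TPM. Of 23 receptors 2 passed the minimum. CXCR4, the receptor of CXCL12, was at 1.04 and 0.50 TPM in RD and at 4.29 and 1.25 TPM in JR1, with changes of -0.44 and -1.23. CCR10, a receptor of CCL27 and CCL28, was at 3.84 and 2.06 TPM in RD and at 2.55 and 1.04 TPM in JR1, with changes of -0.66 and -0.80. For signalling and processing behind the receptors, a list of 17 genes, 14 were tested. PLCB3, a phospholipase driven by G proteins, was called lower in both lines (-1.15 in RD and -1.09 in JR1), and the G protein subunit GNG2 was called higher in JR1 (1.31, from 1.77 to 5.86 TPM), while its change in RD was -0.46. The other members of that list were not called in either line, and the median of the list was -0.50 (RD) and -0.06 (JR1).

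The inducers of chemokines were compared by lists that were chosen with earlier results of these data known. Of 18 tested NF-kB subunits and targets 2 were called lower in RD and 9 in JR1, and 0 were called higher. Of all tested genes 7.37% were called lower in RD, from which 2 of 18 is not far, and 9.05% in JR1. The median of these genes was -0.41 (RD) and -1.04 (JR1), beside -0.27 and -0.21 over all tested genes. IL6, a cytokine target of NF-kB, was the lowest in both lines, at 7.28 and 0.36 TPM in RD and at 8.18 and 0.55 TPM in JR1 (-2.61 and -2.57). LIF was the other gene called in both, at -1.14 and -1.73. The inhibitor NFKBIA, itself a target of the pathway, was at 35.4 and 17.5 TPM in RD and 32.5 and 11.5 TPM in JR1. The subunit RELA changed by -0.23 and -0.25, close to the median of all genes. The highest were TNFAIP3 in RD (0.14) and CYLD in JR1 (0.67).

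Of 21 tested genes of interferon signalling and its targets 15 were called lower in RD, beside 7.37% of all tested genes, and 21 in JR1, beside 9.05%, and 0 were called higher. The median of these genes was -1.79 (RD) and -2.14 (JR1), where that of all tested genes was -0.27 and -0.21. OASL was the lowest in both lines (-5.75 and -5.14), and IFI44L was the highest in RD (-0.56). Cytokines that induce chemokines were low: 0 of 12 passed the minimum. IFNL1, a type III interferon, was at 1.11 and 0.08 TPM in RD and at 2.35 and 0 TPM in JR1. TNF was at 1.04 and 0.03 TPM in RD and at 0.85 and 0.15 TPM in JR1. IFNB1 did not exceed 0.08 TPM, and IFNG was listed at 0 in every library. The part of these signals in the levels of the chemokines was not tested.

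The genes most like each tested member over the 4 libraries were found among 12859 tested genes, by the Euclidean distance between log2(TPM + 1) values centred on their mean. CCL5 was nearest to OASL (distance 0.899), then to IFIT2, IFIT3, RSAD2 and OAS2 (distances of 1.45 to 2.19), which are all antiviral genes of the interferon list. OASL was at 132 and 1.46 TPM in RD and at 84.0 and 1.41 TPM in JR1. CCL2 was nearest to BST2 (0.570), which was at 6.30 and 0.23 TPM in RD and at 16.6 and 0.70 TPM in JR1, then to LTBP2, AEBP1, IL7R and ERFE. CXCL1 was nearest to the endothelin receptor gene EDNRA (0.190), then to ANGPTL2, BHLHE40, EGR1 and IL32. CXCL8 was nearest to IFI35 (0.0639), CXCL2 to FER1L4 (0.129) and CXCL3 to TAP1 (0.121), a peptide transporter of antigen presentation. 0 of the 30 genes so listed was itself one of the 10 chemokines. The distance was not scaled by the size of the change, so only genes with large falls in both lines can lie near CCL5. That fall is also the value on which CCL5 was chosen, and the interferon list was chosen with earlier results known. The nearest genes of CCL5 are therefore a description. The likeness rests on 4 libraries, in which many genes move alike, and says nothing of shared control.

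Genes beside the chemokines were also read, as the nearest protein-coding gene on each side that is no chemokine. These were 10 different genes, of which 3 were tested and 0 called in either line. HEATR9 and RDM1, beside CCL5, did not exceed 0.08 and 0.28 TPM in any library. MTHFD2L, which lies 15364 bases from CXCL2, was at 5.84 and 6.65 TPM in RD and at 6.11 and 4.26 TPM in JR1, with changes of 0.16 and -0.43. SDAD1 and NUP54, on either side of CXCL10 and CXCL11, were between 8.85 and 15.7 TPM in every library, where CXCL10 and CXCL11 were at or near 0.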

How the data were processed

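The files hold 1 table per library with gene coordinates and TPM. The authors selected poly-A RNA and made directional libraries. The study's methods and the submitters' processing notes name GRCh38, STAR 2.7.9a for alignment and RSEM 1.3.2 for abundance. TPM as deposited by the authors keep no counts and come without replicates, so precision and depth could not be given. The 10 members and all lists were chosen with earlier results of these data known.

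TPM were used as deposited. Changes were log2 of TPM + 1, with a minimum mean of 1 TPM and a call at 1 on the log2 scale. No test was run. Calls were also made on simulated libraries with planted changes and an assumed spread. Since the spread between real replicates is unknown, that cannot show how often the calls here are false. The 6 alternatives were a pseudocount of 0.1 TPM, centring on the median, removal of 3016 short structural RNA genes by symbol with rescaling, no minimum, a minimum of 5 TPM and a limit of 1.5-fold.

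Named were the 10 members, other ligands and receptors that passed the minimum or were called, the lowest and highest of each list, the 5 nearest genes per tested member, flanking genes and SKP2; others were chosen after their values were seen. Some items are not reported here. Promoter windows came from RefSeq (GRCh38.p14), and transcripts from GENCODE 44. Python 3.11.15, numpy 2.4.6, pandas 2.3.3 and matplotlib 3.10.9 were used.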

Additional observations from a re-analysis of the deposited data

Results flagged for a closer look

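CXCL2, CXCL3 and CXCL12, among the ligands with a mean of at least 1 TPM, had changes of opposite sign in the lines. CXCL2 changed by 0.38 in RD and -1.08 in JR1, CXCL3 by 0.12 and -1.17, and CXCL12 by 0.12 and -0.96, where the value in RD rests on 0 against 0.09 TPM. CCL20, whose mean was under the minimum of 1 TPM, likewise changed by 0.32 and -0.96. The difference between the lines was not tested, because there is 1 library per line and condition.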

How the results depend on the processing

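The counts of members called lower in RD (3) and in both lines (3) and the 0 members called higher kept their side under every alternative or stayed within 1.5 times, except that a minimum of 5 TPM left 2 members, CCL2 and CCL5, and so 2 calls in each line. Members called lower in JR1 numbered 6, and 4 after centring, which lost CXCL2 and CXCL3. They numbered 7 after removal of short structural RNA genes, with CCL20 now tested, and 2 with a minimum of 5 TPM. Of the other ligands 1 was called lower in JR1, and 2 with a pseudocount of 0.1 TPM, 2 at 1.5-fold, and 0 after centring or with a minimum of 5 TPM. Of the receptors 0 were called in RD and 1 at 1.5-fold. In JR1 1 receptor was called, and 2 with a pseudocount of 0.1 TPM, 2 at 1.5-fold and 0 with a minimum of 5 TPM. Members higher in JR1 shSCR than in RD shSCR by the limit numbered 3, and 5 with a pseudocount of 0.1 TPM, after centring or at 1.5-fold, 6 after removal of short structural RNA genes and 1 with a minimum of 5 TPM. In shSKP2 cells they numbered 1, and 2 with a pseudocount of 0.1 TPM and 0 with a minimum of 5 TPM. Between the lines, the share of all tested genes was not computed under any alternative. The fewer genes tested account for the counts with a minimum of 5 TPM. At 1.5-fold the values are unchanged and only the limit is lower. Centring shifts every gene of a comparison by the same amount, and a smaller pseudocount enlarges the differences of low genes. Removal of short structural RNA genes rescales each library by its own factor and lets more genes pass the minimum. Within a line no paired analysis was possible because each line and condition has 1 library, and for the same reason no library could be left out. A fit over both lines with the line as the pair was not run, since the members were chosen on that contrast. The unknown depth limits every value near 0.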
